A study of Chlamydomonas reinhardtii with 4 samples.

Results

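Transcripts of the unicellular green alga Chlamydomonas reinhardtii whose response to silver nanoparticles (AgNPs) differed between 12 h and 2 h of exposure were examined. For each gene the AgNP effect was the log2 ratio of FPKM + 1 in the exposed over the control library of the same time. The difference was the 12 h effect minus the 2 h effect, centred on the median gene. Of 17741 genes in the deposited files, 3271 averaged at least 5 FPKM in the 4 libraries and were compared. The difference was at least 2-fold for 153 of them, which is 4.68% of the genes compared.

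All 4 libraries came from the wild-type strain FACHB-1121, grown in TAP medium at 25°C with constant agitation under light. The groups were cells exposed to 0.5 mg/L AgNPs for 12 h, control cells (CK in the labels) at 12 h, cells exposed to 0.5 mg/L AgNPs for 2 h, and control cells at 2 h. Each group holds 1 library, so no difference below could be set against a spread between replicates, no p-value was computed, and every statement compares single libraries. FPKM values summed to 1663726 with AgNPs and 1143199 in the control at 12 h, and to 1252796 with AgNPs and 492502 in the control at 2 h. The 2 h control thus had the lowest sum, and it enters every 2 h effect. FPKM is a count of fragments scaled to transcript length and library size, and read depth is unknown. These are RNA levels of whole cultures, in which fewer cells of a kind and less RNA per cell cannot be told apart.

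Several systems that respond to metals or to the state of the culture are well described in this alga. When copper is short, the regulator CRR1 switches on genes such as CYC6, whose cytochrome c6 replaces the copper protein plastocyanin in photosynthetic electron transport. The cells swim with a pair of cilia, whose axonemes are built from tubulin, dynein arms and radial spokes, and transcripts for these parts are known to be raised together when cilia are regrown. Ribosomal protein transcripts are among the most abundant in growing cells.

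The AgNP effects at the 2 times were similar for most genes. Before centring, the median gene had a log2 effect of 0.44 at 12 h and 0.48 at 2 h. Over the 3265 genes with no library at 0, Pearson's r of the 12 h and 2 h effects was 0.72 and Spearman's rho 0.73. These are descriptions across genes, which are not independent replicates. The SD over genes was 0.60 for the 12 h effect, 0.69 for the 2 h effect and 0.49 for their difference, all on the log2 scale. All effects and differences from here on are centred log2 values.

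Genes that were higher with AgNPs at 2 h mostly had smaller effects at 12 h. The 179 genes at least 2-fold higher at 2 h (5.47% of those compared) had a median effect of 0.52 at 12 h and 1.17 at 2 h. The 228 genes at least 2-fold lower at 2 h (6.97%) had medians of -0.94 at 12 h and -1.26 at 2 h. A selection at one time favours that time, so the reverse selection is given beside it. The 99 genes at least 2-fold higher at 12 h (3.03%) had medians of 1.16 at 12 h and 0.81 at 2 h, and the 175 at least 2-fold lower at 12 h (5.35%) had medians of -1.16 at 12 h and -1.09 at 2 h. The 34 genes higher at both times were 34.3% of the 12 h list and 19.0% of the 2 h list, and the 99 lower at both were 56.6% of the 12 h list and 43.4% of the 2 h list. Of these 133 genes, 120 differed by less than 2-fold between the times, and 0 genes were 2-fold higher at one time and 2-fold lower at the other.

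The 153 genes split into 71 with an upward difference (2.17% of those compared) and 82 with a downward one (2.51%). A gene was called turning where its effects had opposite signs and both were at least 0.5 in size, otherwise fading where the effect was larger at 2 h and growing where it was larger at 12 h. By this division 61 genes (1.86%) were higher with AgNPs at 2 h and faded, and 45 (1.38%) were lower at 2 h and faded. Growing effects were fewer, with 20 genes (0.611%) higher and 11 (0.336%) lower with AgNPs at 12 h. Effects turned to lower at 12 h for 10 genes (0.306%) and to higher at 12 h for 6 (0.183%). In 50 of the 61 and 34 of the 45 fading genes the 12 h effect was under 0.5 in size. In 33 of the 61 and 21 of the 45 its sign was opposite to that at 2 h, so that calling these fading rests on the limit for turning. The 2-fold threshold cut through a continuous range. SRP19 at 1.001 was the last gene inside it upward and Cre13.g580900 at 0.999 the first outside, while Cre11.g467527 at -1.001 was the last inside downward and Cre07.g350976 at -0.999 the first outside.

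**Figure D1:**
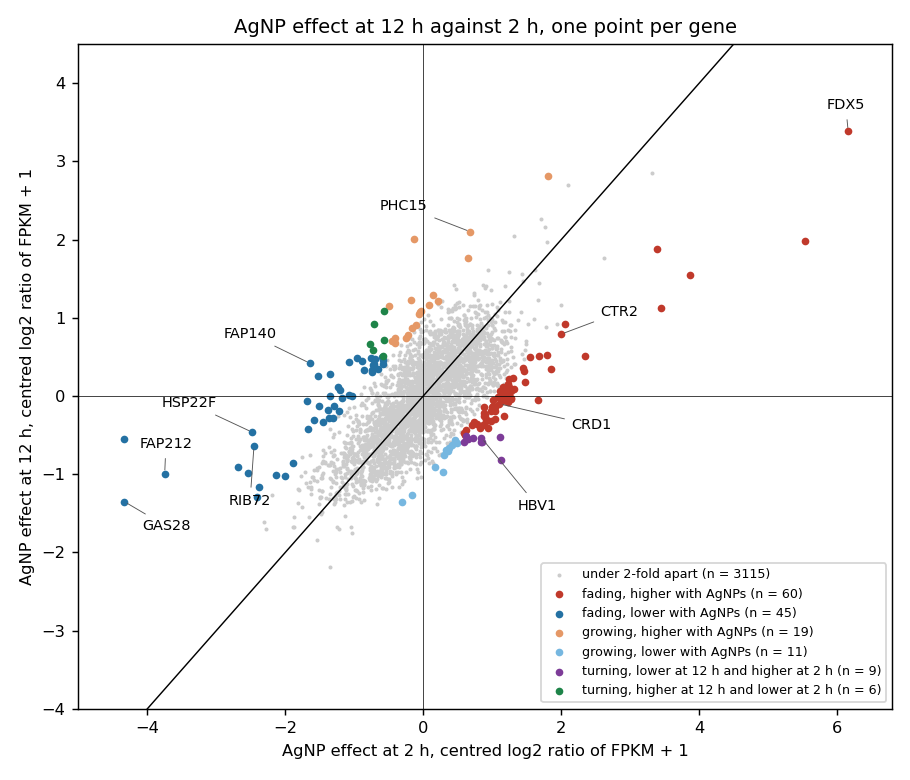
Centred AgNP effect at 12 h (vertical axis) against that at 2 h (horizontal axis), both as log2 ratios of FPKM + 1, for the 3265 genes compared with no library at 0. Each point is 1 gene in 1 pair of libraries per time, colours mark the 6 kinds of course, and the diagonal marks equal effects; FDX5 lies farthest to the right at 6.16 at 2 h and 3.39 at 12 h.

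The same difference can be read as the change between the AgNP libraries minus the change between the controls, 12 h minus 2 h. Read this way, the fading genes fell into unlike groups. Of the 61 genes higher at 2 h, the controls changed more than the AgNP libraries in 50, and in 42 the controls were at least 2-fold apart while the AgNP libraries were not. Their median change was 0.09 in the AgNP libraries and 1.28 in the controls. The 2 h control was the lowest of the 4 libraries in 57 of the 61, against 53.5% of all genes compared. Of the 45 genes lower at 2 h, the controls changed more in 15, and the median change was 1.30 in the AgNP libraries and -0.01 in the controls. Here the 2 h AgNP library was the lowest of the 4 in 35, against 9.02% of all genes. The rule chose the genes with these same libraries, so both counts describe them and support nothing. Among all genes compared the controls changed more in 1617, or 49.4%. The low 2 h control coincides with the lowest FPKM sum, and the part of that in these counts was not tested.

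**Figure D2:**
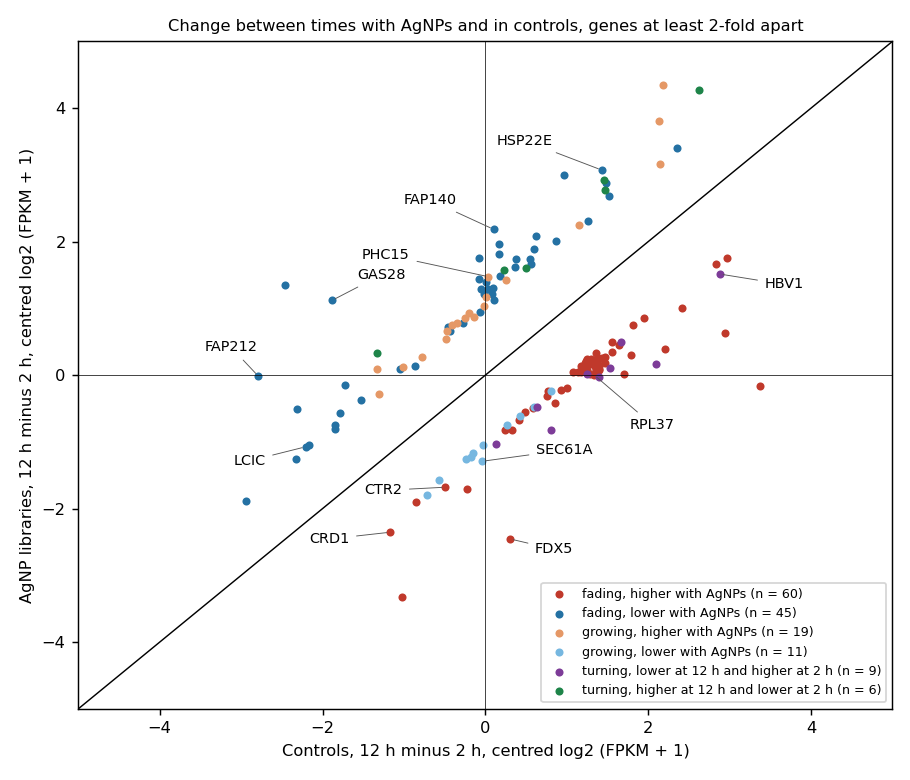
Change between times (12 h minus 2 h) in the AgNP libraries (vertical axis) against that in the controls (horizontal axis), centred log2 (FPKM + 1), for the genes at least 2-fold apart in the AgNP effect with no library at 0. Points are genes coloured by course, and the diagonal marks equal change; fading genes higher with AgNPs at 2 h crowd near 0 for AgNPs and 1.28 for controls, while FDX5, CRD1 and CTR2 lie low on the AgNP axis.

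Among genes known from copper deficiency, FDX5, CTR2 and CRD1 had effects that were smaller at 12 h than at 2 h, and for these the AgNP libraries changed most. FDX5, which encodes a ferredoxin (Cre17.g700950 on chromosome 17, bases 704737 to 706717) and is raised when copper or oxygen is short, stood at 251 FPKM with AgNPs against 16.8 in the control at 12 h, and at 1199 against 11.0 at 2 h. Both AgNP libraries were above both controls, and the controls were close to each other. Its effect was 3.39 at 12 h and 6.16 at 2 h, and the difference of -2.76 was the lowest among genes with a symbol. CTR2 (Cre10.g434350, chromosome 10), which encodes a copper transporter, stood at 4.61 FPKM with AgNPs against 1.39 in the control at 12 h, and at 14.6 against 1.81 at 2 h. Its effect was 0.79 at 12 h and 2.00 at 2 h. CRD1 (Cre07.g346050, chromosome 7), whose product belongs to the chlorophyll cyclase step and accumulates under copper deficiency, stood at 45.9 FPKM against 36.1 at 12 h and at 207 against 68.6 at 2 h. Only its 2 h AgNP library stood clearly apart, and the effect was -0.10 at 12 h and 1.10 at 2 h. The change between the AgNP libraries was -2.45 for FDX5, -1.68 for CTR2 and -2.35 for CRD1, beside 0.30, -0.49 and -1.17 in the controls.

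CYC6 (Cre16.g651050, chromosome 16) took another course from FDX5. It stood at 380 FPKM with AgNPs against 0.236 in the control at 12 h, and at 339 with AgNPs at 2 h, when it was listed at 0 in the control. The AgNP libraries thus differed little from each other, and no fold is given against a library at 0. Of the 9 copper genes compared, out of 14 with such symbols in the files, 3 had a downward difference of at least 2-fold (33.3%, against 2.51% of all genes) and 0 an upward one. The median of the list was -0.84, against 0 for all genes by construction. With equal FPKM sums 1 of the 9 was beyond 2-fold downward and 2 upward, against 0.275% and 24.1% of all genes. With a pseudocount of 0.1 FPKM 5 were downward, against 3.24% of all genes. CTR2 reached the mean of 5 FPKM only through its 2 h AgNP library. CPX1, a coproporphyrinogen oxidase gene, fell just outside at -0.99: it stood at 3.23 FPKM against 5.41 at 12 h and 76.4 against 55.8 at 2 h. PCY1, the plastocyanin gene, had a difference of -0.84, with 10938 FPKM against 7153 at 12 h and 10814 against 3802 at 2 h, so that its controls moved and its AgNP libraries hardly did. ATX1, for a copper chaperone, had effects of 0.98 at 12 h and 0.52 at 2 h. CTH1, the form of CRD1 that cells use when copper is ample, and CRR1 were lower with AgNPs at both times: CTH1 had effects of -0.99 at 12 h and -1.10 at 2 h, and CRR1 had -1.10 and -1.31. The symbols of this list were chosen with earlier results of these data known.

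Cytosolic ribosomal protein genes made up 20 of the 82 genes with a downward difference, 19 fading and 1 turning. They were 29.4% of the 68 such genes compared, against 2.51% of all genes, and 0 had an upward difference. The list median was -0.76, with a median effect of 0.26 at 12 h and 1.01 at 2 h. RPL37 (Cre10.g430400, chromosome 10), a protein of the large subunit, stood at 38675 FPKM with AgNPs against 37773 in the control at 12 h, and at 33486 against 12500.3 at 2 h. The 2 h control was low and the other libraries were close together. RPL38 (Cre07.g325746) stood at 18376 against 13931 FPKM at 12 h and at 14910 against 4423 at 2 h. Of the small subunit, RPS25 (Cre08.g382500) stood at 21542 against 16808 at 12 h and at 17795 against 5468 at 2 h. The 2 h control was the lowest of the 4 libraries for all 20 genes, and likewise for the 48 of the list that were not called. The change between times ran from 0.00 to 0.33 in the AgNP libraries and from 1.17 to 1.47 in the controls. RPL36 (-1.29), RPS30 (-1.26), RPL23 (-1.22) and RPS24 (-1.22) had differences of the same size, as did RPL7ae (-1.22), a ribosomal protein gene whose symbol the list pattern missed. RPS24 overlaps another gene, and reads of overlapping genes cannot be separated where the strand is not used, which is not given here.

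The 20 ribosomal protein genes had short gene spans, with a median of 1232 bp including introns, against 2912 bp for the 48 not called and 3202 bp for all genes compared. With a trend of both effects on span removed, 13 of the 68 stayed beyond 2-fold downward, against 1.96% of all genes. The list median was then -0.74. Scaled to equal FPKM sums without centring, 0 of the 68 were beyond 2-fold, with a list median of -0.01, but the median of all genes was then 0.70, so the list lay below it by a similar margin. Between the AgNP libraries alone the list median was 0.20, with 0 of the 68 beyond 2-fold in either direction. Reads from near-identical copies of these genes may be split by the counting, which adds uncertainty to each single gene.

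Outside the ribosomal list 42 genes were higher at 2 h and faded, of which 36 carry no symbol in the files. Here too the 2 h control was the lowest library in 38 of the 42, against 53.5% of all genes, and the controls changed more in 31. Cre01.g029700 (chromosome 1) had the lowest difference without a library at 0, at -3.54. It stood at 325 FPKM with AgNPs against 60.0 in the control at 12 h, and at 317 against 3.91 at 2 h. Its AgNP libraries were alike and its controls were far apart. Cre14.g634279 (chromosome 14) was listed at 0 in the 2 h control, beside 29051 FPKM with AgNPs and 38828 in the control at 12 h and 28098 with AgNPs at 2 h. A zero beside such values can be a failed estimate, so the gene is counted among those that turned but no fold is given.

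Ciliary genes were the main named group lower with AgNPs at 2 h, relative to the median gene, and less so at 12 h. Of 45 genes compared in the lists of flagellar associated proteins (FAP), axonemal dynein, radial spokes and ribbons, intraflagellar transport, and tubulins, 16 had an upward difference of at least 2-fold (35.6%, against 2.17% of all genes), and 0 had a downward one. Effects were below the median gene for 21 of the 45 at 12 h and for 40 at 2 h, against 50% of all genes at either time. They were at least 2-fold lower for 6 at 12 h and 15 at 2 h, against 5.35% and 6.97% of all genes. In 14 of the 16 the AgNP libraries changed more than the controls, and in 14 the 2 h AgNP library, which the rule used, was the lowest of the 4. Over all 45 it was the lowest in 23 and the 2 h control in 17, against 9.02% and 53.5% of all genes. The median change of the 16 was 1.73 between the AgNP libraries and 0.14 between the controls. Most levels were low: the median of the 16 was 16.4 FPKM with AgNPs against 11.2 in the control at 12 h, and 3.90 against 6.20 at 2 h. With a pseudocount of 5 FPKM in place of 1, 6 of the 45 were beyond 2-fold upward, of which 5 were FAP genes and 1 was axonemal, against 0.887% of all genes. Without centring 12 of the 45 and 0 of the 4 tubulin genes were beyond 2-fold upward, against 1.77% of all genes. Among the 18 ciliary genes averaging 20 FPKM or more there were 4, also against 1.77%. Without the filter on low values 47 of the 292 ciliary genes in the files were beyond 2-fold upward and 0 downward, against 1.23% and 0.975% of all genes. The median difference of the 292 was then 0.47, against 0.64 for the 45. Of the 16 by course, 7 FAP, 5 axonemal and 2 tubulin genes were lower at 2 h and faded, while FAP291 grew and FAP257 turned. Fading in some rests on the centring: without it the effect of RSP4 was 0.87 at 12 h and -0.59 at 2 h. RIB72, at -0.20 and -1.97, was still larger in size at 2 h. Of the 16, 5 reached the mean of 5 FPKM only through their highest library, namely RIB72, RSP4, FAP140, FAP212 and FAP257.

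All 8 genes compared for parts of the axoneme itself had a difference above 0, between 0.74 and 1.83. Of these, 5 were beyond 2-fold (62.5%, against 2.17% of all genes). Without the filter on low values 14 of 43 were beyond 2-fold upward and 0 downward, against 1.23% and 0.975% of all genes. RIB72 (Cre02.g091700), for a protein of the ribbons in the doublet microtubules, stood at 6.13 FPKM with AgNPs against 7.18 in the control at 12 h, and at 0.836 against 6.21 at 2 h. Only the 2 h AgNP library was low. ODA12 (Cre12.g527750), an outer dynein arm gene, stood at 13.5 against 7.97 FPKM at 12 h and 2.23 against 5.64 at 2 h. RSP4 (Cre05.g242500), for a radial spoke protein, stood at 11.6 against 5.89 at 12 h and 3.02 against 5.08 at 2 h. In both genes the AgNP library was the highest of the 4 at 12 h and the lowest at 2 h. RSP11, another radial spoke gene, had a difference of 1.13, and ODA14, an outer arm gene named after its value was seen, had 1.04. TCTEX1 (Cre01.g004250), which encodes a dynein light chain and stands in no list, had 1.35, at 14.3 against 7.26 FPKM at 12 h and 4.41 against 6.17 at 2 h.

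Flagellar associated proteins were found in isolated cilia, and many have no assigned role. Of the 28 FAP genes compared, out of 216 in the files, 9 were beyond 2-fold upward (32.1%, against 2.17% of all genes), and the list median was 0.53. Without the filter on low values 30 of the 216 were beyond 2-fold upward and 0 downward, against 1.23% and 0.975% of all genes. The list median was then 0.45. FAP140 (Cre09.g390949, chromosome 9) stood at 11.7 FPKM with AgNPs against 6.01 in the control at 12 h, and at 1.43 against 4.44 at 2 h. Its effect was 0.42 at 12 h and -1.65 at 2 h. FAP126 (Cre12.g536100) stood at 24.0 against 14.1 at 12 h and 5.17 against 10.2 at 2 h, and FAP90 (Cre10.g424250) at 18.1 against 12.0 at 12 h and 3.96 against 7.38 at 2 h. In these genes the 2 h AgNP library was lowest and the 12 h AgNP library highest. FAP212 (Cre02.g077850) differed from them. It stood at 1.41 FPKM against 2.53 at 12 h and 1.11 against 19.4 at 2 h, so that its 2 h control was high and its AgNP libraries were alike.

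Of the tubulin and transport genes, TUA1 and TUA2 were lower at 2 h and faded, and the others were not called. The tubulins remained low: 3 of 4 were at least 2-fold lower with AgNPs at 12 h and 4 of 4 at 2 h, against 5.35% and 6.97% of all genes. Their list medians were -1.02 at 12 h and -1.85 at 2 h. TUA1 (Cre03.g190950), for alpha-tubulin, stood at 33.9 FPKM with AgNPs against 51.1 in the control at 12 h, and at 12.9 against 39.3 at 2 h, a difference of 1.01. TUA2 had 1.05, and the beta-tubulin genes TUB1 and TUB2 had 0.64 and 0.47. Near-identical tubulin genes can share reads. The 5 genes of the transport and transition zone list had 0 differences beyond 2-fold and a median of 0.35. Their median changes between the times were alike, 1.77 in the AgNP libraries and 1.86 in the controls. Of the 5, 3 had a difference above 0 and 2 below. MKS1 (Cre16.g674627) had the lowest, -0.80, and was higher with AgNPs at both times. It stood at 30.5 against 13.6 FPKM at 12 h and 7.01 against 1.05 at 2 h. IFT25, of the transport complex, stood at 33.4 against 23.8 FPKM at 12 h and 4.97 against 4.68 at 2 h.

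**Figure D3:**
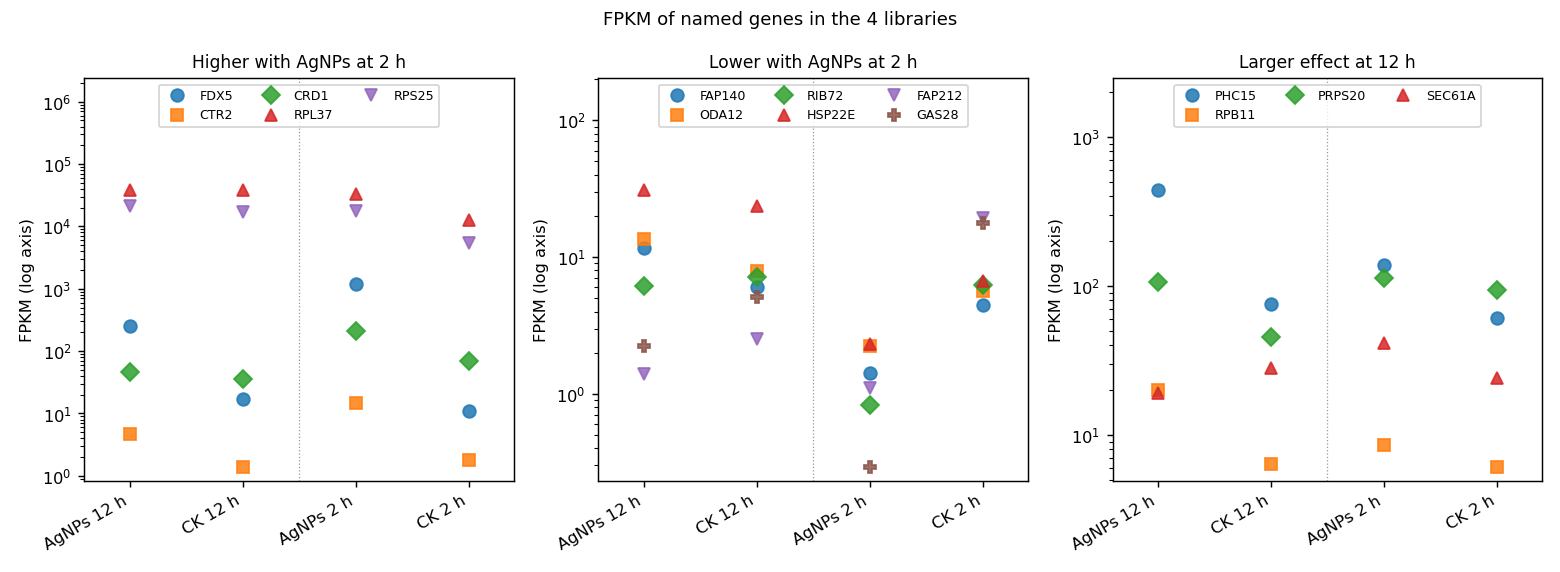
FPKM on a log axis in the 4 libraries for named genes whose effect was higher with AgNPs at 2 h and faded (left), lower at 2 h and faded (middle) or larger at 12 h (right). Each symbol is 1 library without replicate; RPL37 is low only in the 2 h control at 12500.3, whereas RIB72 is low only in the 2 h AgNP library at 0.836.

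The small heat shock protein genes HSP22E and HSP22F, whose products protect plastid proteins under heat, were lower with AgNPs at 2 h. At 12 h they were less so relative to the median gene, and without centring their effects were 0.37 and -0.02. They were the 2 genes compared out of 7 with such symbols in the files. Without the filter on low values 2 of the 7 were beyond 2-fold upward, against 1.23% of all genes, and the median difference was 0.18. HSP22F (Cre14.g617400, chromosome 14) stood at 19.2 FPKM with AgNPs against 19.6 in the control at 12 h, and at 1.20 against 7.79 at 2 h, which made a difference of 2.03. HSP22E (Cre14.g617450, chromosome 14) stood at 31.0 against 23.7 at 12 h and 2.31 against 6.66 at 2 h, a difference of 1.64. Both genes were higher at 12 h in the controls too. HSP22F changed by 3.0 with AgNPs and 0.96 in the controls, and HSP22E by 3.07 and 1.43. They lie 199 bp apart and are related in sequence, so they may share reads and are not independent of each other. Of the 36 other chaperone genes compared, 0 were beyond 2-fold in the difference, beside 4.68% of all genes, which is few genes in such a list. Their median effects were -0.67 at 12 h and -0.52 at 2 h. CCT2, a subunit of the cytosolic chaperonin, came nearest with -0.97.

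Single cell wall, carbon and iron genes also stood among those that were lower at 2 h relative to the median gene. Of 4 cell wall genes compared, out of 35 with such symbols in the files, 3 had an upward difference (75.0%, against 2.17% of all genes), 2 of them lower at 2 h and 1, PHC15, higher at both times. Without the filter on low values 9 of the 35 were beyond 2-fold upward and 1 downward, against 1.23% and 0.975% of all genes. The median difference of the 35 was then 0.10, against 1.29 for the 4. GAS28 (Cre11.g481600), which encodes a hydroxyproline-rich glycoprotein, had the highest difference with a symbol, 3.0, at 2.23 FPKM with AgNPs against 5.08 in the control at 12 h and 0.293 against 17.7 at 2 h. It was lower with AgNPs at both times, and it reached the mean of 5 FPKM only through its 2 h control, the library that also sets its difference. PHC2 (Cre14.g620600), a pherophorin gene of the extracellular matrix, stood at 22.5 against 33.7 FPKM at 12 h and 25.5 against 82.6 at 2 h, so that mainly its control differed between the times. LCIC (Cre06.g307500) and LCIB (Cre10.g452800), whose products form a complex of the carbon-concentrating mechanism, had differences of 1.13 and 1.10. LCIC stood at 6.79 against 6.24 FPKM at 12 h and 13.2 against 26.9 at 2 h, and LCIB at 10.5 against 9.28 at 12 h and 15.8 against 29.9 at 2 h. Both were lower at 12 h in either condition, and more so in the controls. They were the 2 of 15 carbon-concentrating genes beyond 2-fold upward (13.3%, against 2.17% of all genes), while 10 of the 15 had a difference below 0 and the list median was -0.24. FEA1 (Cre12.g546550), for a secreted iron-assimilation protein, had a difference of 1.11, at 5.34 against 2.32 at 12 h and 10.4 against 11.4 at 2 h. Without centring its effect was 0.94 at 12 h and -0.12 at 2 h, so its place among genes lower at 2 h rests on the centring. The unnamed gene Cre17.g710300 (chromosome 17) had the highest difference of all, 3.80, at 4.05 against 4.47 FPKM at 12 h and 0.726 against 24.1 at 2 h, and it too passed the filter only through its 2 h control.

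Effects that grew were fewer, and few of these genes have a symbol. PHC15 (Cre09.g396100), another pherophorin gene, stood at 442 FPKM with AgNPs against 75.2 in the control at 12 h, and at 137 against 60.9 at 2 h. Its effect was 2.10 at 12 h and 0.68 at 2 h, and its 12 h AgNP library stood apart from the other 3. RPB11 (Cre13.g565550), an RNA polymerase II subunit gene, stood at 20.2 against 6.41 FPKM at 12 h and 8.61 against 6.11 at 2 h. PRPS20 (Cre12.g494750), for a plastid ribosomal protein, stood at 107 against 45.3 at 12 h and 113 against 94.3 at 2 h, where the 12 h control was the low library. FAP291 (Cre08.g367550) stood at 49.4 against 21.3 at 12 h and 3.90 against 3.19 at 2 h. The unnamed Cre02.g111900 stood at 18.7 FPKM against 0.0889 at 12 h, and at 2.99 with AgNPs at 2 h, when it was listed at 0 in the control.

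Among the 11 genes with a growing lower effect, SEC61A and COG5 have symbols. SEC61A (Cre03.g171350), for the channel subunit of the translocon of the endoplasmic reticulum, stood at 19.0 FPKM with AgNPs against 28.1 in the control at 12 h, and at 41.6 against 24.0 at 2 h. Its controls were close and its AgNP libraries were far apart, with effects of -0.98 at 12 h and 0.29 at 2 h. COG5 (Cre17.g721900), of a Golgi tethering complex, stood at 14.9 against 16.7 at 12 h and 18.2 against 8.79 at 2 h. Without centring the effects of COG5 were -0.16 at 12 h and 0.98 at 2 h, and those of SEC61A -0.54 and 0.77. In both genes the uncentred effect was larger in size at 2 h, so their place among growing effects rests on the centring. Of 44 secretory genes compared, 1 was beyond 2-fold downward and 1 upward (2.27% each, near the 2.51% and 2.17% of all genes), with a median difference of -0.14.

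Of the 16 genes whose effect turned, 4 have a symbol, and at least 1 of their effects lay near the limit of 0.5. HBV1 (Cre01.g062172) stood at 31.7 FPKM with AgNPs against 34.0 in the control at 12 h, and at 8.94 against 2.97 at 2 h, with effects of -0.54 and 0.84. RPS21, of the small ribosomal subunit, had effects of -0.53 at 12 h and 0.72 at 2 h, and ZIP7 (Cre06.g281900), of a zinc transporter family, had -0.51 and 0.62. In the other direction FAP257 (Cre17.g724400) stood at 13.6 against 6.12 FPKM at 12 h and 3.27 against 4.09 at 2 h, with effects of 0.59 and -0.73. Without centring, 1 gene turned to lower at 12 h, so the opposite signs of HBV1, RPS21 and ZIP7 at this size rest on the centring.

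In the remaining lists few or no genes were beyond 2-fold in the difference, beside 4.68% of all genes compared. In a small list that share is only a few genes. The counts were not tested and are not read as particular to these lists. Translation factors had median effects of -0.73 at 12 h and -0.58 at 2 h, enzymes of the TCA and glyoxylate cycles and gluconeogenesis -0.62 and -0.55, and plastid ribosomal proteins 0.45 and 0.35, with 0 of 24, 0 of 20 and 1 of 35 genes beyond 2-fold in the difference. Respiratory chain and ATP synthase genes had 0.29 and 0.26, with 0 of 78, which is below the share of all genes. Antioxidant genes, which include peroxiredoxins and glutathione peroxidases, had medians of 0.16 at 12 h and 0.12 at 2 h, and 0 of 21 were beyond 2-fold. Chlorophyll synthesis genes were far lower at 12 h than at 2 h in both conditions, by medians of -2.05 with AgNPs and -2.33 in the controls, so that their median difference was 0.11, and CRD1 was the single gene of 20 beyond 2-fold. Antenna genes had median effects of -0.08 at 12 h and 0.24 at 2 h, and 17 of 20 had a difference below 0. Photosystem and cytochrome b6f genes had 0.16 at 12 h and 0.56 at 2 h, with 19 of 23 below 0, and Calvin-Benson genes -0.18 and 0.00, with 12 of 16 below 0. These differences were small, with list medians of -0.24, -0.10 and -0.29, and 0 genes of the 3 lists lay beyond 2-fold. The same count of 0 held for 22 mitochondrial ribosomal protein genes, 27 ubiquitin and proteasome genes, 6 histone genes, 4 hydrogenase and fermentation genes and 2 photoprotection genes, while of 6 iron, zinc and manganese genes FEA1 lay beyond 2-fold upward and ZIP7 downward. A symbol pattern can miss members, as it did with RPL7ae, so these counts cover only the listed symbols and not every gene of a family. Beside CPX1, the genes of these lists nearest to 2-fold were ASA9 (-0.94), of the mitochondrial ATP synthase, PETN (-0.94) and PETC (-0.91), both of cytochrome b6f, and RPN9 (-0.94) and RPN3 (-0.92), both of the regulatory particle of the proteasome. In PETC the 2 h control was the low library: it stood at 2409 FPKM against 1340 at 12 h and 2297 against 655 at 2 h.

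**Figure D4:**
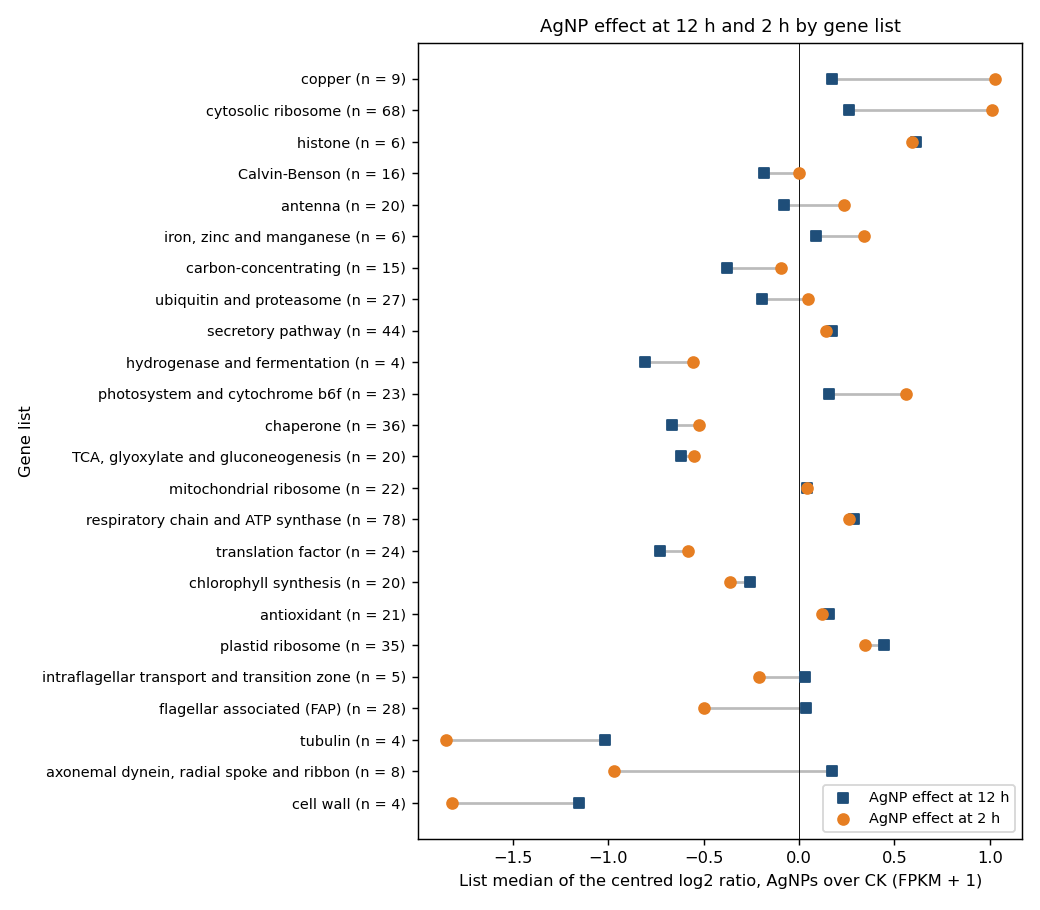
Median AgNP effect at 12 h (squares) and 2 h (circles) for each gene list with at least 4 genes compared, as centred log2 ratio of FPKM + 1, ordered by the median difference; n is the number of genes compared. Among lists higher at 2 h the copper and cytosolic ribosome lists have the widest gaps. Their medians are 1.03 and 1.01 at 2 h and 0.17 and 0.26 at 12 h. On the lower side the tubulin, axonemal and cell wall lists have the widest gaps.

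The levels of the genes that differed entered the rule through the filter and the ratios, and are given as a description. Genes with an upward difference were mostly of low level: the lowest library was under 5 FPKM in 38 of the 71 (53.5%), against 25 of the 82 with a downward difference (30.5%) and 30.4% of all genes compared. The mean of 5 FPKM was reached only through the highest library in 19 of the 71 (26.8%), 9 of the 82 (11.0%) and 10.9% of all genes. With a pseudocount of 5 FPKM in place of 1, which shrinks low genes, the counts were 29 upward and 49 downward. Genes higher at 2 h that faded were of high level, with a median of 369 FPKM against 13.9 for all genes, and with the ribosomal list left out the median was 28.3. Along the chromosomes 3 pairs of next neighbours were called in the same direction. Beside HSP22F and HSP22E these were RPL37 with Cre10.g430450 at a distance of 203 bp and RPL37a with Cre06.g257167 at 3 bp. No share over all neighbouring pairs stands beside this count, so it is a description only.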

How the data were processed

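The deposited values are FPKM per gene, 1 table for each of the 4 libraries, per the file headers. Cuffdiff is named without a version in the submitters' processing notes. The aligner, genome build, filters, strand setting and scaling between libraries are details not given in the sources that were used. Gene identifiers carry annotation version 5.5, and printed coordinates are those of the files with 1 added to the start. Tables were joined on the gene identifier, and groups came from the sample titles.

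Genes averaging at least 5 FPKM were kept, and log2(FPKM + 1) was used, which understates the change of low genes. Effects, differences and changes between times were each centred on their median over the 3271 genes. No test was run, since each group holds 1 library. Gene lists (26) were set by symbol patterns. Members and lists were chosen with earlier results of these data known. Named genes are the 12 highest and 12 lowest differences with a symbol, up to 8 per course, up to 4 per list (all copper genes), and the 2 highest and 2 lowest without a symbol; exceptions are marked. Alternatives were the pseudocount, filter, centring, scaling, threshold, gene span (lowess, fraction 0.5) and 1 control for both times, and, added after the data were seen, the limit for turning genes. No promoter sequence was used here, so a planned motif count was not made. The code for the division into courses was checked on simulated data. These had genes averaging 20 FPKM or more, planted effects larger than most called here and little added noise. The check thus says nothing about how reliable calls near the 2-fold threshold or at low levels are. Tables were handled with pandas 2.3.3 and numpy 2.4.6 in Python 3.11.15, the lowess fit came from statsmodels 0.14.6, and figures were drawn with matplotlib 3.10.9.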

Additional observations from a re-analysis of the deposited data

Results flagged for a closer look

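Of the named genes at least 2-fold apart, 15 had AgNP effects of opposite sign at 12 h and 2 h both with and without centring. These differences were not tested, as 1 exposed and 1 control library stand behind each effect. The difference, 12 h minus 2 h, was positive for FAP140 (2.08), ODA12 (1.78), FAP126 (1.65), RSP4 (1.52), FAP90 (1.36), TCTEX1 (1.35), FAP257 (1.34), RSP11 (1.13), FEA1 (1.11) and SRP19 (1.00), a signal recognition particle gene. It was negative for HBV1 (-1.36), SEC61A (-1.25), RPS21 (-1.24), ZIP7 (-1.11) and COG5 (-1.08). Without centring, the 12 h effect was between -0.16 and -0.07 for HBV1, RPS21, ZIP7 and COG5 and -0.54 for SEC61A.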

How the results depend on the processing

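Each group is 1 library and depth is unknown, so no alternative shows the error of a value. The cause of the shifts below was not tested. Counts are given beside 71 upward, 82 downward, 61 and 45 fading (higher, lower), 20 and 11 growing (higher, lower), 10 and 6 turning (lower, higher at 12 h) and 80 in which the controls changed more. A pseudocount of 0.1 gave 32 growing higher and 16 turning higher. With 5 there were 29 upward, 49 downward, 17 fading lower, 10 and 1 growing, 2 and 2 turning and 50 with larger control change. Without a filter the counts were 218 upward, 173 downward, 126 and 101 fading, 90 and 35 growing, 27 turning higher and 193 with larger control change, and with a mean of at least 20 FPKM they were 22, 45, 31 and 14, 6 and 3, 2 and 44. Without centring 92 and 21 faded, 31 and 3 grew and 1 turned lower, and 98 of the 153 genes kept their course. Equal sums gave 789 upward and 9 downward, 7 and 570 fading, 102 and 1 growing, 1 and 117 turning and 597 with larger control change, since all genes then shifted by a median of 0.70. At 1.5-fold there were 296 upward, 330 downward, 225 and 150 fading, 140 and 95 growing and 339 with larger control change, and at 4-fold 7, 6, 5 and 5, 2 and 0, 1 and 0, and 6. A limit of 0.3 for turning genes gave 28 and 25 turning and 4 growing lower, and 0.7 gave 2 and 1 turning. Removing the span trend moved every one of these counts by less than 1.5 times. With it removed, 122 of the 153 genes stayed beyond 2-fold and 95 of the 153 kept their course.

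With 1 control for both times the difference is that between the AgNP libraries: 381 upward, 405 downward, 94 fading lower, 169 and 280 growing, 74 and 118 turning and 275 with larger control change, with 65 of the 153 genes among them. Signs then reversed for HBV1 (1.51), RPL37 (0.0044), RPL38 (0.10), RPL36 (0.18), RPS25 (0.072), RPS30 (0.13), RPS21 (0.015), RPL23 (0.16), RPL7ae (0.34), RPS24 (0.13), FAP212 (-0.015), PRPS20 (-0.28), FEA1 (-1.05), PHC2 (-0.38), LCIC (-1.07) and LCIB (-0.75), and for the cytosolic ribosome list median (0.20). FDX5 (-2.45), CTR2 (-1.68), CRD1 (-2.35), RIB72 (1.75) and FAP140 (2.18) kept their sign. No paired analysis was possible because each group holds 1 library.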
